A study of Mus musculus with 12 samples.

Results

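The expression of 10 marker genes of GABAergic interneurons was examined in the hippocampus of lupus-prone mice and their controls. The genes were *Gad1*, *Gad2*, *Slc32a1*, *Pvalb*, *Sst*, *Npy*, *Vip*, *Cck*, *Lhx6* and *Reln*, and their probes were found by exact match of the gene name among the non-control probes of the arrays, which name 29608 genes. *Pvalb* and *Slc32a1* have 2 probes each, *Lhx6* has 3, and the others have 1, that of *Sst* being spotted 10 times on each array. Of the 10 genes, 8 had at least 1 spot that was usable in all 12 mice. *Vip* and *Reln* had none, and their values over the 12 mice were taken without a filter on dim spots. Of the 14 probes, 13 lie in the array design (mm9) on the strand that RefSeq (GRCm38.p6) gives their gene. That of *Vip* lies on the other strand. The strands come from 2 genome assemblies, so the strand of the *Vip* probe relative to its gene is not settled.

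Interneurons are the local inhibitory cells of the hippocampus. They make GABA from glutamate with the decarboxylases encoded by *Gad1* and *Gad2* and load it into synaptic vesicles with the transporter encoded by *Slc32a1*. Subtypes are told apart by calcium-binding proteins such as parvalbumin (*Pvalb*), which marks fast-spiking basket and chandelier cells, and by neuropeptides, namely somatostatin (*Sst*), neuropeptide Y (*Npy*), vasoactive intestinal peptide (*Vip*) and cholecystokinin (*Cck*). The homeodomain factor encoded by *Lhx6* is required for the parvalbumin and somatostatin cells that come from the medial ganglionic eminence, and *Reln* encodes the secreted glycoprotein reelin, made in the adult by neurogliaform and other interneurons. *Cck* is also made by principal cells of the cortex and hippocampus, and *Npy* and *Sst* are made by several interneuron types.

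The samples were the hippocampi of 12 female mice, about 12 weeks old and in diestrus, 4 of each of 3 phenotypes. MRL/lpr mice have lost the function of *Fas* and develop lupus-like disease. The mice labelled Fn14ko, here called Fn14ko-labelled mice, are MRL/lpr animals that lack *Tnfrsf12a*, the gene of the TWEAK receptor Fn14, by the labels, after backcrossing to generation 8. They carry the *Fas* mutation too and were littermates bred in the same facility as the MRL/lpr mice. MRL/MpJ mice (MRL/+) have an intact *Fas* gene and served as the non-lupus controls. They were bought from a supplier, so phenotype and origin cannot be told apart for this group. Each of 6 Agilent arrays took 2 mice of 1 phenotype, with odd replicate numbers labelled in Cy3 and even ones in Cy5. Each phenotype had a slide of its own, so that slide and phenotype cannot be told apart. The free-text notes of the samples also speak of cortex, whereas the tissue and source fields give hippocampus for all 12.

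The array of MRL/lpr replicates 3 and 4 was weak. On it, 25.2% and 19.6% of the probe spots were well above background, compared with 60.8% and 66.0% for MRL/lpr replicates 2 and 1, 51.5% to 68.1% for the Fn14ko-labelled mice, and 29.6% to 67.5% for MRL/MpJ, where both mice in Cy5 were under 32%. Results are therefore given for all 12 mice and for the 10 mice outside the weak array, where MRL/lpr is represented by 2 mice of 1 array. The probe for *Tnfrsf12a* was well above background in all 4 Fn14ko-labelled mice, at 2.91 to 5.08 times the channel median without a filter on dim spots, compared with 3.43 to 12.9 in MRL/MpJ (log2 difference −0.53, limma adjusted p = 0.625). With the filter and 10 mice its levels were 0.603 to 0.771 in the Fn14ko-labelled mice, 1.09 to 1.98 in MRL/MpJ and 1.16 and 1.66 in MRL/lpr. The Fn14ko-labelled mice overlapped with neither other group, while MRL/lpr lay within the MRL/MpJ range. The Fn14ko-labelled mice were lower than MRL/MpJ by 1.20 (SE 0.20, adjusted p = 0.00469) and than MRL/lpr by 1.04 (SE 0.25, adjusted p = 0.0264), the direction of the label. What part of the transcript was deleted is not known here. *Fas* ranged from 0.364 to 0.831 in MRL/lpr, from 0.907 to 1.54 in the Fn14ko-labelled mice and from 1.23 to 2.36 in MRL/MpJ (MRL/lpr against MRL/MpJ −1.53, adjusted p = 0.0635, and −1.74 in the 10 mice, adjusted p = 0.0234). For the Fn14ko-labelled mice against MRL/MpJ it was −0.38 (limma adjusted p = 0.603) and −1.05 in the 10 mice (adjusted p = 0.0580). For MRL/lpr against the Fn14ko-labelled mice it was −1.15 (adjusted p = 0.0527) and −0.69 (adjusted p = 0.390). *Fas* was well above background in 1, 4 and 2 mice of the 3 groups.

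All levels given are background-subtracted intensities divided by the median of their channel over the spots kept. A level of 2 is thus 2 times the median spot. Levels of the 12 mice and of the 10 mice rest on different sets of spots and different medians, so a level of one set is not compared with a level of the other. The log2 fold changes of the 2 sets differ in part by this change of medians too. Levels of different genes are not compared either, since each probe has its own sensitivity.

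**Figure D1:**
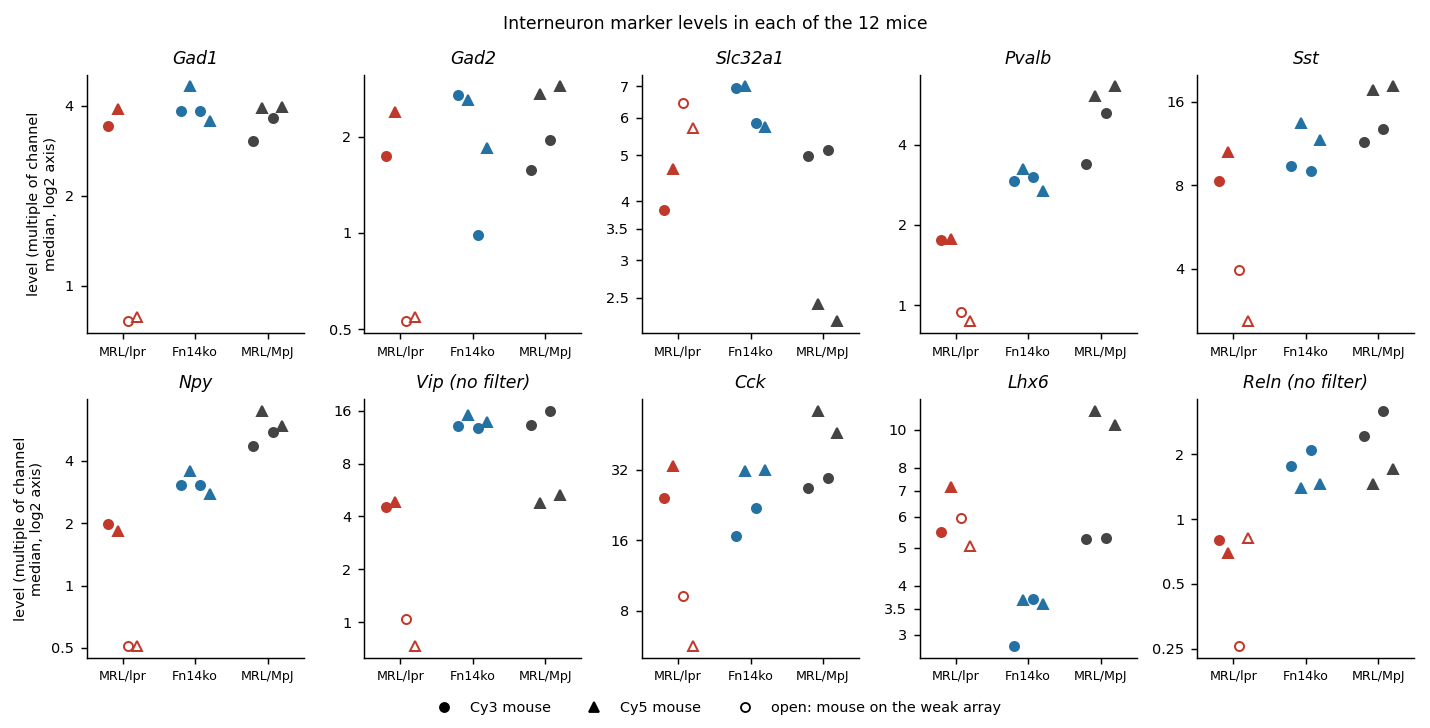
Level of each of the 10 genes in each of the 12 mice (vertical log2 axis, multiple of the channel median), with circles for Cy3, triangles for Cy5 and open symbols for the weak array. *Npy*, *Pvalb* and *Reln* were lower in all 4 MRL/lpr mice than in any mouse of the other groups. In *Gad1*, *Gad2*, *Sst*, *Cck*, *Vip*, *Npy* and *Pvalb* the 2 lowest points are the open ones.

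The plot of levels by mouse shows that the weak array set the lowest values of several markers. Its effect depended on the level of the gene. Over all genes measured in the 12 mice, the median log2 difference between MRL/lpr replicates 3 and 4 and replicates 1 and 2 was 4.29 in the lowest decile by level in the other 8 mice, −0.01 in the fifth decile, −1.17 in the ninth and −1.42 in the highest. Of the 8 markers measured with the filter, 7 lay in the ninth or highest decile and *Gad2* in the seventh. Their differences between the MRL/lpr arrays were −2.24 for *Gad1*, −1.92 for *Gad2*, −1.97 for *Cck*, −1.90 for *Npy*, −1.55 for *Sst*, −0.96 for *Pvalb*, −0.19 for *Lhx6* and 0.52 for *Slc32a1*. For this reason each 12-mouse difference is set beside its value without the weak array.

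**Figure D2:**
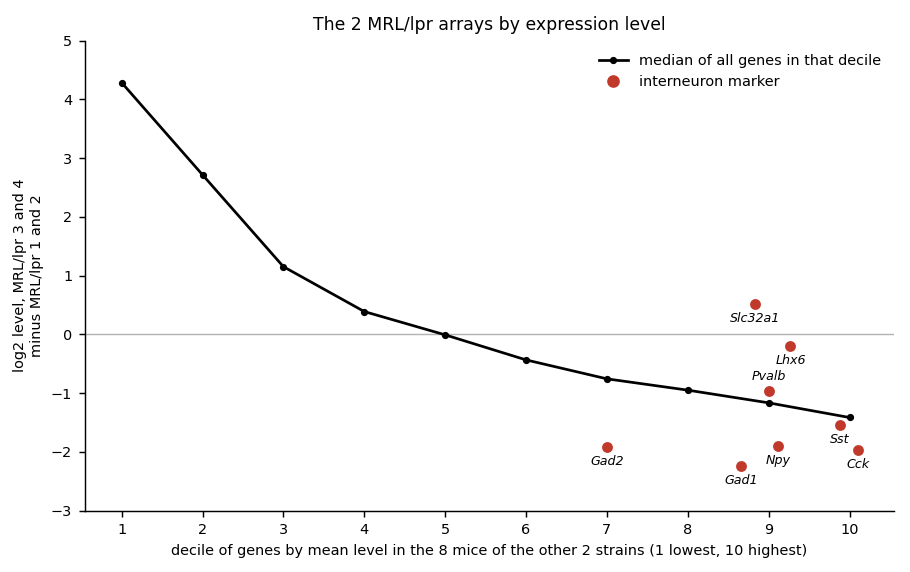
Median log2 difference between the 2 MRL/lpr arrays (replicates 3 and 4 minus 1 and 2, vertical axis) in each decile of genes by level in the other 8 mice (horizontal axis), with the 8 markers measured in all 12 mice as points. The line falls from 4.29 in the lowest decile to −1.42 in the highest; *Slc32a1*, *Lhx6* and *Pvalb* lie above it, and *Gad1*, *Gad2*, *Npy* and *Cck* more than 0.5 below it.

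The first comparison, MRL/lpr against MRL/MpJ, contrasts the lupus-prone mice with their non-lupus background. *Npy* and *Pvalb* were lower in MRL/lpr, at 17.3% and 24.4% of the MRL/MpJ level, and remained so in the 10 mice, at 37.4% and 39.3%. *Sst* was lower in the 12 mice only, and *Vip* and *Reln* passed the threshold of an adjusted p of 0.05 in the 10 mice only. *Gad1*, *Gad2*, *Slc32a1*, *Cck* and *Lhx6* passed in neither set. In bulk tissue, fewer cells of a type and less RNA per cell cannot be told apart.

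With all 12 mice, 3 of the 8 filtered markers were called, all lower, where 9.17% of the 8864 genes were called and 5.71% were called lower and 3.46% higher. The same 3 genes had no overlap between the groups, as did 11.6% of all genes in that direction. Without the filter, where 0.993% of 29608 genes were called, *Reln* was not called but did not overlap, as did 3.33% of genes in that direction. The median log2 fold change of the 8 markers was −1.25, compared with −0.01 over all genes, and 7 of the 8 were below 0. Without the weak array, 4 of the 10 markers were called, all lower, against 15.7% of 17936 genes called 9.61% called lower and 6.11% called higher, with a median of −0.36 against −0.10. These 4 and *Sst* did not overlap, as did 20% of genes in that direction. When the array was taken as a random block, with an estimated within-array correlation of 0.710, no marker was called, and the limma adjusted p was 0.0846 for *Npy*, 0.140 for *Pvalb* and 0.294 for *Sst*.

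The second comparison, MRL/lpr against the Fn14ko-labelled mice, asks what differs when the TWEAK receptor gene is targeted on the lupus-prone background. *Pvalb* and *Vip* were lower in MRL/lpr with 12 and with 10 mice. *Reln* was called lower in the 12 mice only, *Npy* was called lower in the 10 mice only, and *Lhx6*, in the opposite direction, was called higher in the 10 mice only. The other 5 genes passed in neither set. This comparison and the first share the MRL/lpr mice, and each shares a control group with the third, so they are not independent of each other.

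With the filter and 12 mice, 1 of 8 markers (*Pvalb*) was called, where 3.98% of the 8864 genes were called and 1.77% were called lower. Without the filter, *Vip* and *Reln* were called, where 12.8% of 29608 genes were called, 8.04% were called lower, and 26.3% were lower without overlap. The groups did not overlap for *Npy* and *Pvalb*, lower in MRL/lpr as for 10.3% of genes, nor for *Lhx6*, higher in MRL/lpr as for 11.2% of genes. The median over the 8 markers was −0.91, compared with 0.03 over all genes. Without the weak array, 4 of 10 markers were called (3 lower, 1 higher), where 9.12% of 17936 genes were called, 5.03% lower and 4.09% higher, and the medians were −0.46 and −0.04. The groups did not overlap for *Npy*, *Pvalb*, *Reln*, *Slc32a1* and *Vip*, lower as for 20.9% of genes, nor for *Lhx6*, higher as for 16.1%. With the array as a random block no marker was called (limma adjusted p of 0.243 to 0.742).

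The third comparison set the Fn14ko-labelled mice against MRL/MpJ. With 12 mice no marker was called by limma, where 0.519% of the 8864 genes were called, and *Lhx6*, *Pvalb* and *Slc32a1* had an unadjusted p under 0.05. Without the filter, 0% of 29608 genes were called. The groups did not overlap for *Lhx6*, *Npy* and *Pvalb*, lower as for 14.1% of genes, nor for *Slc32a1*, higher as for 5.88%. The set of 10 mice holds the same 8 mice of these groups. It has more spots, other channel medians and a spread estimated without the weak array. For *Npy*, read by the same probe in both sets, the log2 fold change went from −0.88 (SE 0.44) to −0.63 (SE 0.13). In the 10 mice, 5 of 10 markers were called, where 21.1% of 17936 genes were called. *Lhx6*, *Npy*, *Pvalb* and *Reln* were lower in the Fn14ko-labelled mice (11.1% of genes lower) and the gene-level value of *Slc32a1*, whose probes disagreed, was higher (10% of genes higher). These 5 did not overlap, as did 9.1% of genes on the lower side and 9.39% on the higher. The median was −0.27, compared with −0.07 over all genes. With the array as a random block no marker was called (adjusted p of 0.857 to 0.998).

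**Figure D3:**
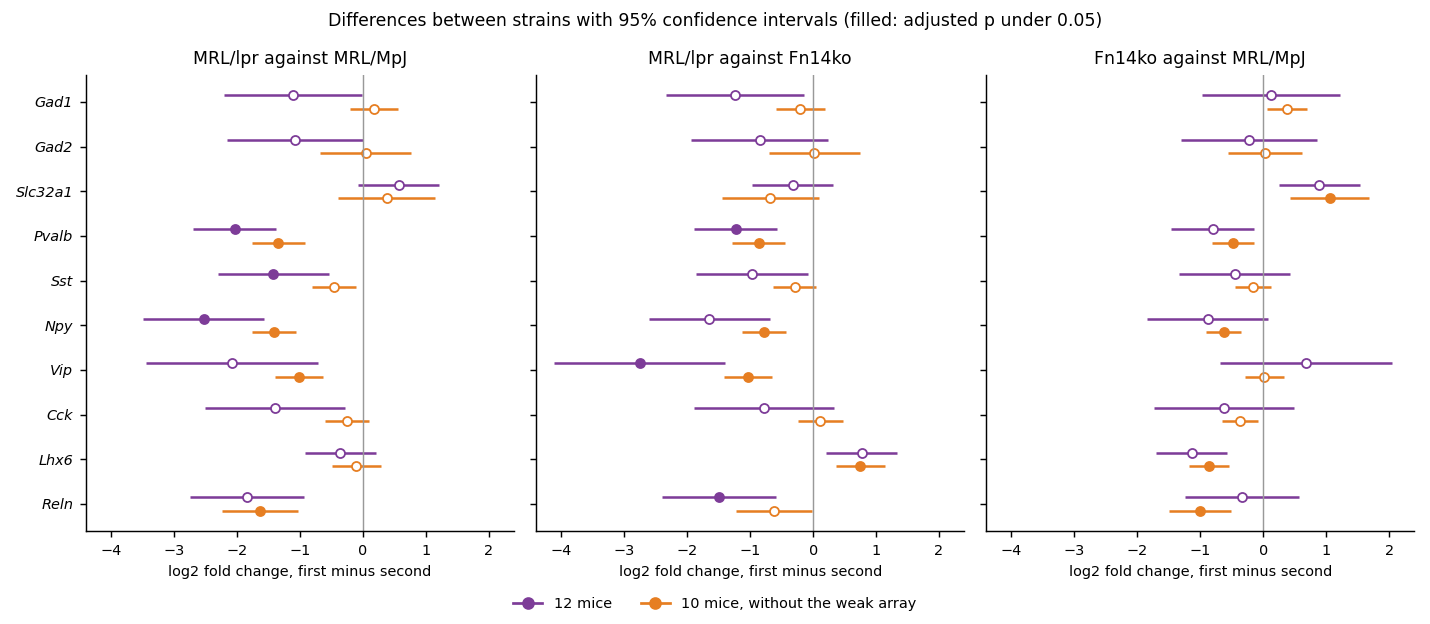
Log2 fold change of each gene in the 3 comparisons (horizontal axis, first group minus second), with 95% confidence intervals, for 12 mice (purple) and for the 10 mice outside the weak array (orange); filled points passed the adjusted p of 0.05. In the comparison of MRL/lpr with MRL/MpJ the intervals of *Gad1* and *Gad2* span 0 in the 10 mice, and those of *Npy* and *Pvalb* lie below −0.90 in both sets.

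The plot of fold changes shows that leaving out the weak array moved most values of MRL/lpr towards 0 and narrowed most of their intervals. The members are described by role, with the value of each mouse for those on which the comparisons turn.

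*Gad1* encodes GAD67, which supplies most of the basal GABA of the neuron. Its levels were 3.42, 3.92, 0.761 and 0.789 in the 4 MRL/lpr mice, 3.84, 4.66, 3.86 and 3.57 in the Fn14ko-labelled mice and 3.05, 3.94, 3.65 and 3.97 in MRL/MpJ. Only the 2 mice of the weak array stood below the others. Without that array the levels were 12.9 and 14.8 in MRL/lpr, 14.3 to 18.5 in the Fn14ko-labelled mice and 10.7 to 14.4 in MRL/MpJ. The log2 fold change of MRL/lpr against MRL/MpJ was −1.11 with 12 mice (SE 0.50, limma adjusted p = 0.133) and 0.17 with 10 mice (95% confidence interval −0.21 to 0.56, adjusted p = 0.507). Against the Fn14ko-labelled mice it was −1.23 (adjusted p = 0.117) and −0.20 (adjusted p = 0.561). The Fn14ko-labelled mice differed from MRL/MpJ by 0.13 with 12 mice (adjusted p = 0.944) and by 0.38 with 10 (0.06 to 0.69, adjusted p = 0.0805), an interval above 0 that did not pass after adjustment.

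*Gad2* encodes GAD65, the form bound to synaptic vesicles. With 12 mice, its levels were 1.74, 2.39, 0.530 and 0.547 in MRL/lpr, 2.69, 2.61, 0.984 and 1.84 in the Fn14ko-labelled mice, and 1.58, 2.72, 1.96 and 2.87 in MRL/MpJ. The groups overlapped, and 1 Fn14ko-labelled mouse, at 0.984, stood below the other mice off the weak array. Over the 10 mice MRL/lpr and MRL/MpJ differed by 0.041 on the log2 scale, with a 95% confidence interval of −0.68 to 0.76. In the 10 mice, neither decarboxylase passed the threshold in any of the 3 comparisons.

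*Slc32a1*, which encodes the vesicular GABA transporter VGAT, has 2 probes that went opposite ways. With the filter and 12 mice only the brighter probe was measured, at 3.84 to 6.44 in MRL/lpr, 5.74 to 7.0 in the Fn14ko-labelled mice and 2.23 to 5.13 in MRL/MpJ. The 2 lowest of the 12 values belonged to the MRL/MpJ mice in Cy5, at 2.42 and 2.23, while those in Cy3 were at 4.99 and 5.13. Over the 10 mice, this probe (A_52_P138926, mm9 chr2:158441324-158441383) differed by 1.14 on the log2 scale between the Fn14ko-labelled mice and MRL/MpJ (adjusted p = 0.0231 over 23488 probes) and by 0.47 between MRL/lpr and MRL/MpJ (adjusted p = 0.384). The second probe (A_55_P1985286, mm9 chr2:158440166-158440225) was dim and stood at 0.217 and 0.229 in MRL/lpr, 0.536, 0.454, 0.450 and 0.394 in the Fn14ko-labelled mice and 0.753, 0.750, 0.869 and 0.922 in MRL/MpJ. In these 10 mice its 3 groups did not overlap, and both dyes gave the same order. Its log2 fold changes were −1.88 for MRL/lpr against MRL/MpJ (adjusted p = 0.0003), −1.03 against the Fn14ko-labelled mice (adjusted p = 0.0110) and −0.85 for the Fn14ko-labelled mice against MRL/MpJ (adjusted p = 0.0074). Without the filter the order of the last 2 groups turned in Cy5, with MRL/MpJ at 4.71 and 5.63 in Cy3 but 1.499 and 2.08 in Cy5, beside 1.90 to 3.53 in the Fn14ko-labelled mice, and the difference was −0.18 (adjusted p = 0.765). The probe was well above background in 2 of 4, 4 of 4 and 2 of 4 mice of the 3 groups. The gene-level value of *Slc32a1* is a mean of intensities and follows the brighter probe, so no direction is given for the gene. The sequence of the dim probe is shown because the conflict rests on it:
Slc32a1 probe A_55_P1985286: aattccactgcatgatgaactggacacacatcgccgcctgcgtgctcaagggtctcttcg

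*Lhx6*, the transcription factor of the parvalbumin and somatostatin lineages, was the marker for which the Fn14ko-labelled mice stood lowest. Its levels were 5.48, 7.15, 5.95 and 5.05 in MRL/lpr, 2.81, 3.69, 3.71 and 3.59 in the Fn14ko-labelled mice and 5.25, 11.2, 5.30 and 10.3 in MRL/MpJ. The Fn14ko-labelled mice overlapped with neither other group, and in MRL/MpJ both Cy5 mice were about 2 times as high as both Cy3 mice. Without the weak array, the log2 fold change was −0.86 (SE 0.14, 95% confidence interval −1.18 to −0.54, limma adjusted p = 0.00463) for the Fn14ko-labelled mice against MRL/MpJ, and 0.75 (SE 0.18, 0.36 to 1.14, adjusted p = 0.0251) for MRL/lpr against Fn14ko. With 12 mice the values were −1.14 and 0.77, with adjusted p of 0.0778 and 0.0876.

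These values of *Lhx6* rest on 1 of its 3 probes. The bright probe A_55_P2005903 (mm9 chr2:35937644-35937703) was measured in every mouse, at 11.2 to 15.1 in the Fn14ko-labelled mice and 20.2 to 32.0 in MRL/MpJ over the 10 mice. Probe A_55_P2094158, dimmer and well above background in 2, 4 and 2 mice of the groups, differed by −0.06 between the Fn14ko-labelled mice and MRL/MpJ (adjusted p = 0.814) and by −0.31 between MRL/lpr and the Fn14ko-labelled mice (adjusted p = 0.470). The third was not well above background in any mouse. The bright probe ends in a dinucleotide repeat, shown here with its repeat in capitals because 70 of the 39429 probes hold 10 or more such AC or GT units, and whether it also binds repeats of other transcripts was not tested:
Lhx6 probe A_55_P2005903, last 30 bases: aACACACACACACACACACACACACACACA

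**Figure D4:**
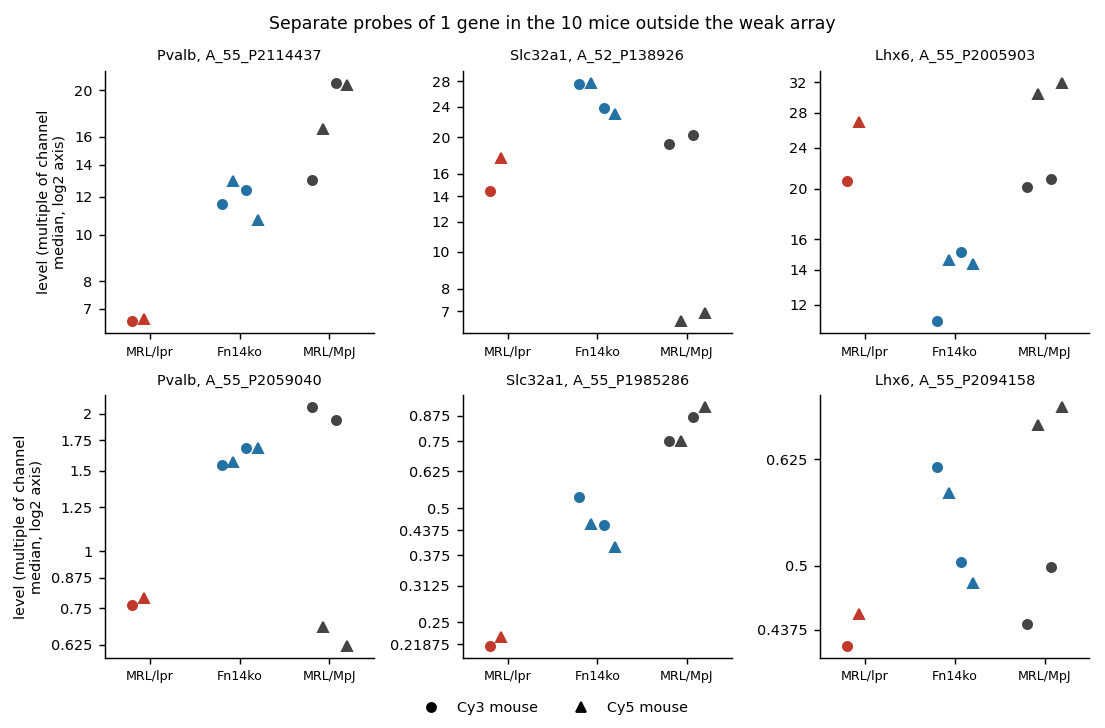
Levels of 2 probes each of *Pvalb*, *Slc32a1* and *Lhx6* in the 10 mice outside the weak array (vertical log2 axis, multiple of the channel median; circles Cy3, triangles Cy5). The dim probes in the lower row order the groups differently from the bright probes above them: the Slc32a1 probe below rises from 0.217 in MRL/lpr to 0.922 in MRL/MpJ, and in the Pvalb probe below the MRL/MpJ mice split by dye.

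*Pvalb* encodes the calcium buffer of fast-spiking interneurons. With 12 mice its levels were 1.75, 1.77, 0.942 and 0.871 in MRL/lpr, 2.91, 3.25, 3.04 and 2.68 in the Fn14ko-labelled mice, and 3.39, 6.11, 5.26 and 6.62 in MRL/MpJ. The 3 groups did not overlap, with MRL/lpr lowest and MRL/MpJ highest. The means were 1.33 ± 0.493, 2.97 ± 0.239 and 5.34 ± 1.42 (SD, n = 4). MRL/lpr was lower than MRL/MpJ with a log2 fold change of −2.04 (SE 0.30, −2.70 to −1.38, limma adjusted p = 0.00453; exact permutation p = 0.0286, two-sided, the smallest that 4 against 4 mice allow), and lower than the Fn14ko-labelled mice with one of −1.23 (SE 0.30, −1.89 to −0.57, adjusted p = 0.0452). Outside the weak array the levels were 3.68 and 3.72, then 6.21 to 7.24, then 7.54 to 11.4, again without overlap. The fold changes were then −1.35 (SE 0.19, adjusted p = 0.00126) and −0.87 (SE 0.19, adjusted p = 0.0181), and the Fn14ko-labelled mice were lower than MRL/MpJ (−0.48, adjusted p = 0.0490).

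The call of *Pvalb* against MRL/MpJ held when any 1 of the 12 mice was left out (adjusted p 0.00285 to 0.0269), and within each dye the log2 fold change was −1.72 in Cy3 and −2.36 in Cy5. The call against the Fn14ko-labelled mice held only without MRL/lpr replicate 1 or replicate 2, with adjusted p of 0.0148 to 0.132 over the 12 omissions. The 2 probes of the gene agreed on the side of MRL/lpr but not on its size. The brighter one, A_55_P2114437 (mm9 chr15:78021951-78022010), differed by −1.40 between MRL/lpr and MRL/MpJ in the 10 mice (adjusted p = 0.0017), and the dimmer, A_55_P2059040, by −0.56 (adjusted p = 0.307). Between the Fn14ko-labelled mice and MRL/MpJ they went opposite ways, at −0.55 (adjusted p = 0.0371) for the brighter and 0.50 (adjusted p = 0.233) for the dimmer. The dimmer probe stood at 2.07 and 1.94 in the MRL/MpJ mice in Cy3 and at 0.683 and 0.622 in those in Cy5, and the latter overlap with the 0.765 and 0.790 of MRL/lpr.

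*Npy* encodes the inhibitory peptide of neurogliaform, ivy and many somatostatin cells, and was the member with the largest 12-mouse fold change against MRL/MpJ. Its levels were 1.99, 1.84, 0.511 and 0.513 in MRL/lpr, 3.06, 3.57, 3.06 and 2.77 in the Fn14ko-labelled mice, and 4.72, 6.97, 5.52 and 5.89 in MRL/MpJ. The 3 groups were again in 3 separate ranges, with means of 1.21 ± 0.812, 3.11 ± 0.331 and 5.77 ± 0.936 (SD, n = 4). The 10 mice gave 7.50 and 6.91 in MRL/lpr, 12.1, 14.2, 12.5 and 11.1 in the Fn14ko-labelled mice, and 18.1, 19.0, 21.8 and 18.3 in MRL/MpJ, with both dyes inside each range. The MRL/lpr replicates outside the weak array thus lay below the other 8 mice on their own.

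Against MRL/MpJ the log2 fold change of *Npy* was −2.53 with 12 mice (SE 0.44, −3.49 to −1.57, limma adjusted p = 0.00903; exact permutation p = 0.0286) and −1.42 with 10 mice (SE 0.16, −1.77 to −1.07, adjusted p = 0.000345). The call held in all 12 omissions of 1 mouse (adjusted p 0.00285 to 0.0430), and the change was −2.34 in Cy3 and −2.72 in Cy5. Against the Fn14ko-labelled mice it was −1.65 (adjusted p = 0.0572) and −0.79 (adjusted p = 0.0121). For the Fn14ko-labelled mice against MRL/MpJ it was −0.63 in the 10 mice (SE 0.13, adjusted p = 0.0104) and −0.88 in the 12 (adjusted p = 0.384). The probe of *Npy* maps to both sides of an intron, from base 49773743 to base 49777505 of chromosome 6 (mm9), so it reads spliced RNA, and its sequence is given because *Npy* carries the clearest difference:
Npy probe: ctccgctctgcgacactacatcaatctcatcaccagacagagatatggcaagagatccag

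*Sst* encodes somatostatin, the peptide of dendrite-targeting cells of the stratum oriens and the hilus. With 12 mice its levels were 8.30, 10.6, 3.97 and 2.59 in MRL/lpr, 9.42, 13.5, 8.99 and 11.7 in the Fn14ko-labelled mice and 11.5, 17.7, 12.8 and 18.2 in MRL/MpJ. MRL/lpr lay below MRL/MpJ without overlap, most of all on the weak array, and overlapped with the Fn14ko-labelled mice. The log2 fold change against MRL/MpJ was −1.43 (SE 0.40, −2.31 to −0.54, adjusted p = 0.0486) and, in the 10 mice, −0.46 (SE 0.16, −0.81 to −0.11, adjusted p = 0.0711), that is 37.2% and 72.6% of the MRL/MpJ level. The 12-mouse call was kept in 2 of 12 omissions, those of MRL/lpr replicate 1 or 2, with adjusted p of 0.0144 to 0.143. The 10 spots of its probe varied with a coefficient of variation of 15.7% to 27.7% in 8 mice, of 71.6% and 132% in MRL/lpr replicates 3 and 4, and of 53.4% and 48.4% in the MRL/MpJ mice in Cy5.

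*Vip* encodes the peptide of interneurons that mainly inhibit other interneurons. The array design places its only probe at mm9 chr10:4699238-4699297 on the minus strand, whereas RefSeq has the gene on the plus strand of GRCm38.p6. Whether the 2 assemblies orient this stretch alike was not checked, and which transcript the probe binds was not tested. Without the filter, its levels were 4.51, 4.84, 1.05 and 0.733 in MRL/lpr, 13.1, 15.1, 12.8 and 13.8 in the Fn14ko-labelled mice, and 13.2, 4.75, 15.9 and 5.27 in MRL/MpJ. The Fn14ko-labelled mice formed a narrow range above all of MRL/lpr, while MRL/MpJ split by dye and its Cy5 mice overlapped with MRL/lpr. The log2 fold change of MRL/lpr against the Fn14ko-labelled mice was −2.76 (SE 0.63, −4.12 to −1.39, limma adjusted p = 0.0208), and against MRL/MpJ −2.07 (SE 0.63, adjusted p = 0.134). With the filter and 10 mice the dye split was absent, at 1.05 and 1.24 in MRL/lpr, 1.98, 2.75, 1.94 and 2.85 in the Fn14ko-labelled mice, and 2.11, 2.38, 2.46 and 2.34 in MRL/MpJ. The fold changes were then −1.03 (SE 0.17, adjusted p = 0.00464) and −1.02 (SE 0.17, adjusted p = 0.00327). The Fn14ko-labelled mice and MRL/MpJ differed by 0.016 (−0.29 to 0.32). The 12-mouse call was lost without any 1 Fn14ko-labelled mouse (adjusted p 0.0507 to 0.0851) and without MRL/lpr replicate 4 (0.0514).

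*Cck*, the peptide of a basket cell class and of many principal cells, had 12-mouse levels of 24.2, 33.2, 9.28 and 5.67 in MRL/lpr, 16.6 to 31.7 in the Fn14ko-labelled mice and 26.6 to 56.9 in MRL/MpJ. Without the weak array the ranges were 91.2 to 125, 66.1 to 127 and 102 to 155 and overlapped in all 3 pairs. The log2 fold changes of MRL/lpr in the 10 mice were −0.25 against MRL/MpJ (−0.61 to 0.10, adjusted p = 0.292) and 0.12 against the Fn14ko-labelled mice (−0.24 to 0.47, adjusted p = 0.752), compared with −1.40 (adjusted p = 0.0839) and −0.78 (adjusted p = 0.248) in the 12 mice.

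*Reln* encodes reelin. Without the filter, its levels were 0.803, 0.698, 0.258 and 0.815 in MRL/lpr, 1.76, 1.39, 2.09 and 1.46 in the Fn14ko-labelled mice and 2.43, 1.46, 3.18 and 1.70 in MRL/MpJ. All 4 MRL/lpr mice were below the other 8 mice. The log2 fold change was −1.84 against MRL/MpJ (SE 0.42, limma adjusted p = 0.0571; exact permutation p = 0.0286) and −1.50 against the Fn14ko-labelled mice (SE 0.42, −2.40 to −0.59, adjusted p = 0.0412), the latter kept in 3 of 12 omissions, those of MRL/lpr replicate 1, 2 or 4. With the filter and 10 mice, *Reln* stood at 0.188 and 0.179 in MRL/lpr, 0.252 to 0.317 in the Fn14ko-labelled mice and 0.389 to 0.756 in MRL/MpJ. All 3 groups were then apart, with −1.63 against MRL/MpJ (SE 0.27, −2.24 to −1.03, adjusted p = 0.00330), −0.63 against the Fn14ko-labelled mice (−1.23 to −0.02, adjusted p = 0.197) and −1.01 between the Fn14ko-labelled mice and MRL/MpJ (SE 0.22, adjusted p = 0.0136). MRL/MpJ split by dye here, at 0.389 and 0.491 in Cy3 and 0.729 and 0.756 in Cy5. Without the filter its Cy3 mice were the higher ones. The Fn14ko-labelled mice then overlapped with MRL/MpJ, with a log2 fold change of −0.34 (limma adjusted p = 0.649). The probe was dim and well above background in 2, 4 and 2 mice of the 3 groups. It maps to base 21404915 to 21404974 of chromosome 5 (mm9), and its sequence is shown because it is the only one behind these values:
Reln probe: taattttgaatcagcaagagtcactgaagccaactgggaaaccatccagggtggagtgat

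Promoters of neuropeptide genes, those of *Sst* and *Vip* among them, are known targets of the cAMP-responsive factor CREB, which binds TGACGTCA or its partial form TGACG. In the RefSeq sequence of assembly GRCm38.p6, all 10 genes had a promoter entry, 8 of them a single one. Within the window of 250 bases before to 50 after the start, and on either strand, TGACG was found for *Cck*, *Gad2*, *Sst* and *Vip*, and in 17.8% of 32851 promoters. The complete TGACGTCA, which contains TGACG, was found for *Sst* only, and in 1.55% of all promoters. Of the genes with TGACG, *Vip* was called lower in MRL/lpr than in the Fn14ko-labelled mice with and without the weak array. *Sst* was called lower than in MRL/MpJ only with that array (limma adjusted p = 0.0711 without it). *Cck* and *Gad2* were called in neither set of mice. *Npy*, *Pvalb* and *Reln*, also called lower in MRL/lpr, had no match in this window. Whether the sites bear on the levels was not tested. *Sst* and *Vip* are shown over the 250 bases before the start with the match in capitals. The stretch of *Sst* is chr16:23890845-23891094 on the minus strand and that of *Vip* is chr10:5638968-5639217 on the plus strand:
Sst promoter: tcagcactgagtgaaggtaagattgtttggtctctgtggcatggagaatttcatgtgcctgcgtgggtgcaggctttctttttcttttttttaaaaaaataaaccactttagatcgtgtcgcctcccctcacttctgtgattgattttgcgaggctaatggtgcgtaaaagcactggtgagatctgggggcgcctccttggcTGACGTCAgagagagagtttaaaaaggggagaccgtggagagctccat
Vip promoter: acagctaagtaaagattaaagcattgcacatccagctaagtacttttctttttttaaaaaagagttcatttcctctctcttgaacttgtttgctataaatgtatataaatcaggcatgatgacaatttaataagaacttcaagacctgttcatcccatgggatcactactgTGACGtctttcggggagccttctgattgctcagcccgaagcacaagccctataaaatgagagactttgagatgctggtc

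The genes that surround the markers were read from 4 lists, with values given as log2 differences. Of 12 genes of GABA transport and breakdown, 8 were measured in all 12 mice. None was called by limma for MRL/lpr against the Fn14ko-labelled mice, where *Abat*, the GABA transaminase, had −1.21 (adjusted p = 0.0540), or for the Fn14ko-labelled mice against MRL/MpJ. With 10 mice all 12 were measured, and 2 were higher and 2 lower in MRL/lpr in each comparison. In those 2 comparisons 6.11% and 4.09% of all genes were higher and 9.61% and 5.03% lower. *Slc6a12* and *Slc6a13*, transporters known from the meninges and the blood-brain barrier, were higher in MRL/lpr, by 2.64 and 1.52 against MRL/MpJ and by 3.19 and 1.56 against the Fn14ko-labelled mice. *Slc6a11*, an astrocytic transporter, was lower than in MRL/MpJ both in MRL/lpr (−1.29) and in the Fn14ko-labelled mice (−1.48, adjusted p = 0.00383).

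Of 28 other genes of interneuron subtypes, 13 were measured in the 12 mice, and against MRL/MpJ 3 were lower in MRL/lpr and 1 was higher, beside 5.71% and 3.46% of all genes. *Lamp5*, a marker of neurogliaform cells that some principal neurons express as well, was lower in MRL/lpr, with −3.17 against MRL/MpJ (SE 0.23) and −2.38 against the Fn14ko-labelled mice (SE 0.23, adjusted p = 0.0006), and in the 10 mice with −2.93 (adjusted p = 8.59e-05) and −2.42 (adjusted p = 0.000471). *Cxcl14* and *Crhbp* were lower against MRL/MpJ (−1.18 and −1.0), and *Pnoc*, encoding the nociceptin precursor, was higher by 1.53. With the array as a random block, only *Lamp5* against MRL/MpJ kept its call among these genes (limma adjusted p = 0.0142), with 0.0519 against the Fn14ko-labelled mice and 0.294 for each of the other 3. With 10 mice 26 were measured, and 6 were lower in MRL/lpr than in MRL/MpJ with none higher, where 9.61% of all genes were lower, among them *Tac2* (−2.03) and *Nxph1* (−1.02). Against the Fn14ko-labelled mice 7 were lower and none higher, where 5.03% of all genes were lower, among them *Penk* (−1.81) and *Crh* (−1.61). Between the Fn14ko-labelled mice and MRL/MpJ, no gene of the list was called by limma with 12 mice, and 5 were higher and 2 lower with 10, beside 10% and 11.1% of all genes. *Tac1* (1.97) and *Penk* (1.46) were among the higher ones, and both are also made by striatal projection neurons.

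Of 20 transcription factors of the interneuron lineage, 4 were measured with 12 mice. *Satb1*, required for the maturation of somatostatin and parvalbumin cells, was lower in MRL/lpr, with −1.57 against MRL/MpJ (adjusted p = 0.0399) and −1.76 against the Fn14ko-labelled mice (adjusted p = 0.0408), which became 0.271 and 0.276 with the array as a random block, and in the 10 mice its values were −0.57 (adjusted p = 0.179) and −1.01 (adjusted p = 0.0484). With 10 mice and 14 measured, 2 were higher and 2 lower in MRL/lpr in both comparisons, where 15.7% and 9.12% of all genes were called, with *Etv1* higher in both (1.89 and 1.08) and *Sox6*, a factor of the same lineage as *Lhx6*, lower against MRL/MpJ (−1.20, adjusted p = 0.0108). *Dlx5*, *Maf* and *Zeb2* were lower in the Fn14ko-labelled mice than in MRL/MpJ (−1.70, −0.75 and −1.21), where *Etv1* was higher (0.80). Over all genes 11.1% were called lower and 10% higher in that comparison.

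The receptors for these peptides and for reelin were the fourth list. Of 17 genes, 6 were measured with 12 mice and none was called by limma, the smallest p among them being those of *Vldlr* (1.55, adjusted p = 0.0550) and *Adcyap1r1* (−0.90, adjusted p = 0.0772) for MRL/lpr against MRL/MpJ. With 10 mice and 15 measured, *Cckbr*, the brain receptor for cholecystokinin, was lower in MRL/lpr, with −2.93 (adjusted p = 8.33e-05) against MRL/MpJ and −2.65 (adjusted p = 0.000270) against the Fn14ko-labelled mice. *Npy2r*, a presynaptic receptor for neuropeptide Y, was higher by 3.83 (adjusted p = 0.00415) and 4.28 (adjusted p = 0.00367). *Sstr2* was lower than in MRL/MpJ in MRL/lpr (−1.70) and in the Fn14ko-labelled mice (−0.91). Of the 15 receptor genes, 1 was higher and 2 lower in MRL/lpr than in MRL/MpJ, where 15.7% of all genes were called. Against the Fn14ko-labelled mice 1 was higher and 1 lower, where 9.12% of all genes were called. Between the Fn14ko-labelled mice and MRL/MpJ it was again 1 higher and 1 lower, where 21.1% were called.

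Genes of particular regions and other cells moved with the same groups. *Prox1*, which marks dentate granule cells and some interneurons, stood at 2.85, 2.30, 7.34 and 5.24 in MRL/lpr without the filter, the last 2 being those of the weak array, at 0.242 to 0.498 in the Fn14ko-labelled mice and at 0.481 to 0.681 in MRL/MpJ, and was well above background in 4, 2 and 2 mice. *Ppp1r1b*, which encodes DARPP-32 of striatal projection neurons, stood at 5.59 to 28.3 in MRL/lpr, 70.6 to 261 in the Fn14ko-labelled mice and 7.77 to 104 in MRL/MpJ. In the 10 mice *Spink8*, a marker of CA1 pyramidal cells, was higher in MRL/lpr by 4.06 and 4.14 (adjusted p = 0.000376 and 0.000578), and *Tbr1*, a marker of neocortical and subicular neurons, was lower (−2.04 and −1.96, adjusted p = 0.000126 and 0.000290).

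**Figure D5:**
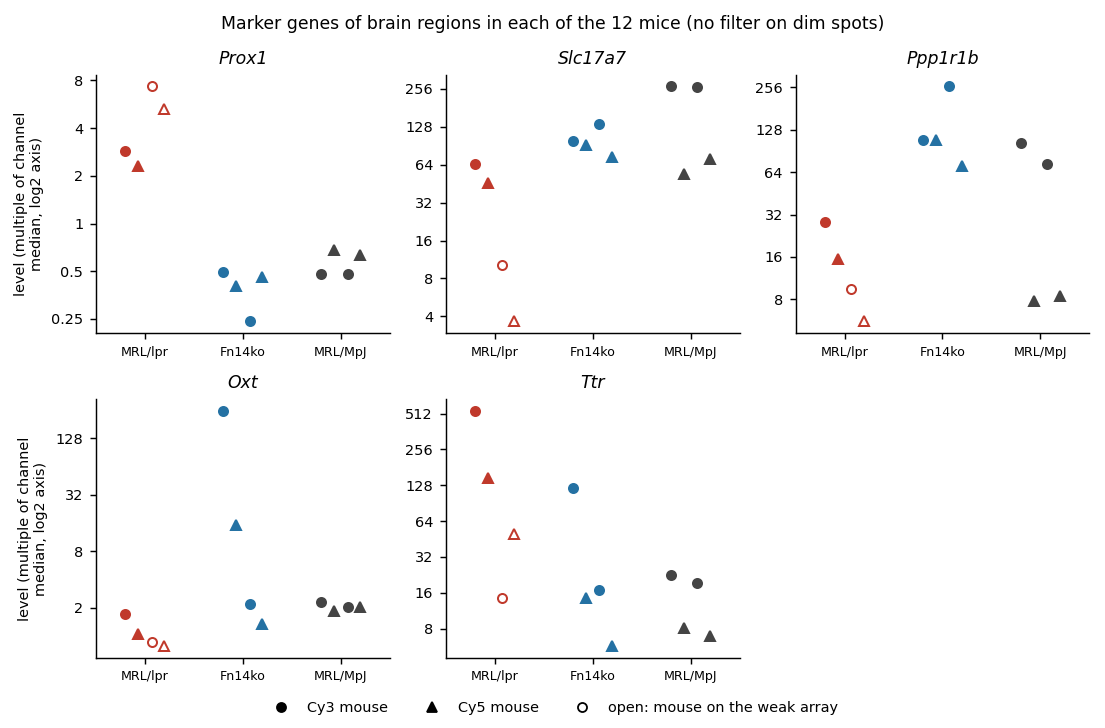
Levels of 5 genes of brain regions in the 12 mice without a filter on dim spots (vertical log2 axis, multiple of the channel median; circles Cy3, triangles Cy5, open symbols the weak array). *Prox1* is highest in the 4 MRL/lpr mice and *Ppp1r1b* is lower in all 4 than in any Fn14ko-labelled mouse; *Oxt* reaches 248 in 1 Fn14ko-labelled mouse, and *Slc17a7* and *Ppp1r1b* split by dye in MRL/MpJ.

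The plot of region markers shows that the 3 groups differed in genes of several structures. Levels summed over whole lists are given for the 10 mice, and a sum follows the brightest probes of its list. For the glutamatergic list, the sum of MRL/lpr lay below MRL/MpJ, while the median log2 fold change of its genes was 0.52. Over all genes, 6.11%, 4.09% and 10% were called higher and 9.61%, 5.03% and 11.1% lower in the 3 comparisons of these mice. The 14 measured of 15 striatal genes summed to 29.8 and 31.1 in MRL/lpr, 59.99 to 153 in the Fn14ko-labelled mice and 37.2 to 56.3 in MRL/MpJ, and 3, 7 and 0 of them were lower in the first group of the 3 comparisons, with 1, 0 and 7 higher. The 9 measured of 12 choroid plexus genes summed to 72.8 and 215, 28.4 to 47.9 and 26.5 to 35.6, with 5 higher in MRL/lpr against either group and 1 lower in the third comparison. The 16 measured of 18 glutamatergic genes summed to 173 and 195, 146 to 199 and 236 to 357, with 6 higher and 4 lower in MRL/lpr against MRL/MpJ and 7 higher and 2 lower against the Fn14ko-labelled mice, and 3 higher and 5 lower in the third comparison. The 11 measured of 12 thalamic genes summed to 11.4 to 11.9, 12.1 to 14.8 and 12.1 to 12.7, with 2 higher and 2 lower in MRL/lpr against MRL/MpJ and 3 higher and 1 lower against the Fn14ko-labelled mice, and 0 higher and 2 lower in the third comparison. A level of 0 could not arise, since dim spots were removed or, without the filter, low signals were set to 1% of the channel median. The levels therefore do not show that each marker was present. The part of these region genes in the differences of *Pvalb*, *Npy*, *Vip*, *Reln* and *Lhx6* was not tested.

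The genes whose log2 level was most like the mean of *Gad1* and *Gad2* over the 10 mice were *Rpl15* (Pearson's r = 0.900), *Meaf6* (0.875), *Hs6st2* (0.840), *Tspan31* (0.829) and *Trmt2b* (0.827), out of 17936 genes, given as a description since mice of an array share its hybridization. The mean itself followed *Gad2* (r = 0.901) more than *Gad1* (0.616). Of the other markers, *Slc32a1* had r = 0.344 with this mean, *Sst* 0.327 and *Vip* 0.175. Values below 0 were those of *Cck* (−0.03), *Pvalb* (−0.05), *Npy* (−0.14), *Lhx6* (−0.29) and *Reln* (−0.29).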

How the data were processed

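Hippocampal RNA of 12 mice was hybridized on 6 two-colour Agilent arrays. The authors deposited, per spot and dye, the intensity on a linear scale from Agilent Feature Extraction 12.1, not normalized between channels; probe positions are in mm9 and gene names are those of the array design. The number of arrays and the signal over background limit the precision.

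Following the study's methods, background was subtracted, dim spots (foreground less than 2 times background) and flagged outliers were removed, and only the 10877 spots (8864 genes) valid in all 12 mice were kept. Intensities were divided by the median of their channel and averaged over the spots of a probe, then over the probes of a gene. *Vip* and *Reln* came from a fit with no filter (29608 genes, floor of 1% of the channel median). Without the weak array, 25621 spots and 17936 genes were valid. Tests on the log2 levels used limma 3.58.1 under R 4.3.3 (all groups in 1 fit, dye as covariate, eBayes with trend, Benjamini-Hochberg adjustment over all genes, threshold 0.05), with array as a random block through statmod 1.5.0. Exact permutation tests were two-sided. The fits without a block treat mice as independent, although 2 share an array, and the labels do not say more of how the mice were sampled. The analysis was tested on simulated data.

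The 10 genes and all gene lists were chosen with earlier results of these data known. Named are the 10 genes, in each list up to 4 genes of smallest adjusted p past the threshold or, in the interneuron lists, the smallest p where none passed, *Tnfrsf12a*, *Fas*, *Oxt*, the most spread region markers and the 5 genes most like *Gad1* and *Gad2*; *Prox1*, *Slc17a7*, *Ppp1r1b* and the dye splits were chosen after their values were seen. A few of these genes are left out here. Python 3.11.15, numpy 2.4.6, pandas 2.3.3, scipy 1.17.1 and matplotlib 3.10.9 were used for the other steps.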

Additional observations from a re-analysis of the deposited data

Results flagged for a closer look

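The level of *Lhx6* in replicate 1 of the Fn14ko-labelled mice, at 2.81 times the channel median, stood far from the other 3 mice of its group, at 3.59 to 3.71. The gap was 0.864 of the group's range, over Dixon's 95% critical value for 4 samples. It was the only 1 of 30 gene and group combinations of the 12-mouse levels to stand apart in this way, and chance gives about 1 in 20.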

How the results depend on the processing

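With 12 mice the markers called numbered 3 for MRL/lpr against MRL/MpJ, 3 against the Fn14ko-labelled mice and 0 for the Fn14ko-labelled mice against MRL/MpJ, *Vip* and *Reln* included. For MRL/lpr against MRL/MpJ the number was 0 without the filter, with the array as a random block, by the methods' t-test after adjustment, and in the Cy3 or the Cy5 mice alone (both chosen after seeing the data), and 5 with array weights. Against the Fn14ko-labelled mice it was 0 with normexp, the random block, the methods' t-test and either dye alone, 1 with quantile normalization and 5 with Agilent's processed signal. For the Fn14ko-labelled mice against MRL/MpJ it was 8 with array weights and 5 without the weak array. Leaving out 1 mouse gave 2 to 8, 0 to 7 and 0 to 1 markers; the highest counts came without MRL/lpr replicate 1 (6, 6, 0) or 2 (8, 7, 0). The cause was not tested. Deviations of same-numbered mice from their group means had correlations of −0.395 to 0.503 over 12 pairs. Such mice also share a dye, so this range does not settle whether the numbers pair mice. The fit with the replicate number as a block called 2, 1 and 0 markers (*Sst* adjusted p = 0.0552).

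Some log2 fold changes changed sign, most of them uncalled. MRL/lpr against MRL/MpJ: *Slc32a1* was −0.049 without the filter, −0.67 with Agilent's signal (adjusted p = 0.0332) and −0.026 in Cy3; *Lhx6* was 0.40 with each sample's own valid spots, 0.71 with Agilent's signal, 0.093 with quantile normalization and 0.11 in Cy3; *Gad1* was 0.17 and *Gad2* 0.041 without the weak array. Against the Fn14ko-labelled mice, *Lhx6* was −0.68 without the filter, *Slc32a1* 0.16 with own valid spots and 0.033 with quantile normalization, *Gad2* 0.062 and *Cck* 0.17 with array weights, and 0.020 and 0.12 without the weak array. For the Fn14ko-labelled mice against MRL/MpJ, the fit without the filter gave *Gad2* 0.69, *Pvalb* 0.19, *Sst* 0.50, *Npy* 0.035 and *Cck* 0.30; *Vip* was −0.24 with own valid spots, −0.16 with normexp, −0.14 with quantile normalization and −0.16 in Cy3, *Reln* 0.35 with Agilent's signal, and *Gad2* 0.021 without the weak array and −0.51 to 0.037 with 1 mouse left out.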

Other observations

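Glial genes differed between the groups as well, and values are log2 differences. The calls with 12 mice given here were lost with the array as a random block, where of 16 listed genes called against MRL/MpJ and 12 against the Fn14ko-labelled mice 1 and 0 stayed called (limma adjusted p of 0.0142 to 0.321 and 0.0519 to 0.285). With 12 mice, *Gfap*, the intermediate filament of astrocytes, was higher in MRL/lpr by 2.26 against MRL/MpJ (limma adjusted p = 0.00296) and by 1.39 against the Fn14ko-labelled mice (adjusted p = 0.0329), while 1 other of the 8 measured astrocyte genes, *Fgfr3*, was called, lower than in the Fn14ko-labelled mice (−1.63). In the 10 mice, 2 of 10 astrocyte genes were higher in MRL/lpr than in MRL/MpJ (*Gfap* 2.32, *Gjb6* 0.92) and 2 were lower (*S100b* −0.87, *Slc1a2* −0.75), where 6.11% and 9.61% of all genes were, and 4 were higher in the Fn14ko-labelled mice than in MRL/MpJ, where 10% of all genes were. Of the 10 oligodendrocyte genes, *Mog* was higher in MRL/lpr than in MRL/MpJ with 12 mice (1.45, adjusted p = 0.0428), and *Mal* and *Mog* with 10 (1.67 and 0.88). Over all genes 3.46% and 6.11% were higher. Of the microglial genes, *P2ry12*, the purinergic receptor of homeostatic microglia, was lower in MRL/lpr than in both groups in both sets, with −1.02 and −1.07 over 12 mice and −0.64 and −0.94 over 10. *Cx3cr1*, the fractalkine receptor, was lower than in MRL/MpJ with 12 mice (−1.02, adjusted p = 0.0454), and *Itgam* was higher than in the Fn14ko-labelled mice with 10 mice (0.86, adjusted p = 0.0308). In the 10 mice, 1 of 10 microglial genes was lower and 0 higher against MRL/MpJ, beside 9.61% and 6.11% of all genes. Against the Fn14ko-labelled mice 1 was lower and 1 higher, beside 5.03% and 4.09%. With 12 mice, 2 and 1 of 8 were lower in these comparisons, beside 5.71% and 1.77%.

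*Oxt*, the oxytocin gene of magnocellular hypothalamic neurons, stood at 248, 15.1, 2.19 and 1.32 in the Fn14ko-labelled mice without the filter, and at 0.782 to 2.32 in the other 8 mice. *Pmch*, a peptide gene of the lateral hypothalamus and the most spread of its list, spanned 7.99 on the log2 scale over the 10 mice, and was at 71.0 in replicate 1 of the Fn14ko-labelled mice. The 10 measured hypothalamic genes summed to 2.98 and 3.32 in MRL/lpr, 5.95 to 75.7 in the Fn14ko-labelled mice and 6.23 to 10.6 in MRL/MpJ. Of these, *Cartpt* and *Nr5a1* were lower in MRL/lpr than in both other groups (−2.30 and −1.95 against MRL/MpJ), and *Pomc* was lower than in the Fn14ko-labelled mice. Over all genes 9.61% were called lower against MRL/MpJ and 5.03% against the Fn14ko-labelled mice. *Ttr*, the transthyretin gene of the choroid plexus, was at 538, 147, 14.4 and 49.7 in MRL/lpr, 121, 14.5, 16.9 and 5.73 in the Fn14ko-labelled mice and 6.96 to 22.6 in MRL/MpJ.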
